A study of Canis lupus familiaris with 4 samples.

Results

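*MS4A1*, *CD38* and *CD40LG* were examined in skin biopsies of 4 dogs as readouts of B cells, of activated lymphocytes and plasma cells, and of T cell help. The genes were found by their RefSeq transcripts, NM_001048028.1 for *MS4A1*, NM_001003143.1 for *CD38* and NM_001002981.1 for *CD40LG*, and are 3 of the 160 targets of a custom canine panel. One biopsy came from a Boxer aged 5 years with erythema multiforme (EM), a cytotoxic interface dermatitis in which T cells attack the basal keratinocytes. The comparatives, called controls in the labels, were inflamed skin without that attack: cell poor vasculitis (CPV) in a Pomeranian aged 4 years, pyoderma in a Golden Retriever aged 7 years (case 1) and pyoderma in a German Shepherd aged 9 years (case 2). The dogs with EM and CPV were spayed females and both dogs with pyoderma were neutered males, so sex and pyoderma cannot be told apart here. The biopsies were archival, fixed in formalin and embedded in paraffin, the labels give no treatment, and healthy skin was not analysed here.

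*MS4A1* encodes CD20, a membrane protein carried by B cells from early in their development and lost when they become plasma cells. *CD38* encodes an ectoenzyme that is abundant on plasma cells but is also raised on activated T cells, natural killer cells and myeloid cells, so it does not mark a single cell type. *CD40LG* encodes CD40 ligand (CD154), which activated helper T cells display and which engages CD40 on B cells, macrophages and dendritic cells; in B cells this drives proliferation, class switching and germinal centre formation. *CD40LG* lies on the X chromosome.

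The panel counts barcoded probes without amplification. The targets of a biopsy summed to between 517282 and 808877 counts. The background of each biopsy was set from its 8 negative control probes (their mean plus 2 SD) and lay between 13.0 and 16.3 counts. Normalized counts are counts multiplied by a factor per biopsy, from 0.821 to 1.11, that equalises the geometric mean of the housekeeping genes *HPRT1*, *RPL13A* and *B2M*. Intervals on a level are 95% Poisson limits and cover counting error only. With 1 dog for EM and CPV and 2 for pyoderma, they say nothing about the spread between dogs of 1 diagnosis.

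The 3 genes did not rise and fall together. *CD38* and *CD40LG* were highest in pyoderma case 2, the biopsy with the lowest *MS4A1* under 6 of 9 scalings, whereas *MS4A1* was highest in pyoderma case 1. For *MS4A1*, the lead of pyoderma case 1 over CPV was resolved under 5 of the 9 scalings. With housekeeping scaling the EM biopsy was lowest for *CD38*, next after pyoderma case 2 for *CD40LG*, and close to the lowest for *MS4A1*. In whole tissue RNA, fewer cells of a type and less RNA per cell cannot be told apart.

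**Figure D1:**
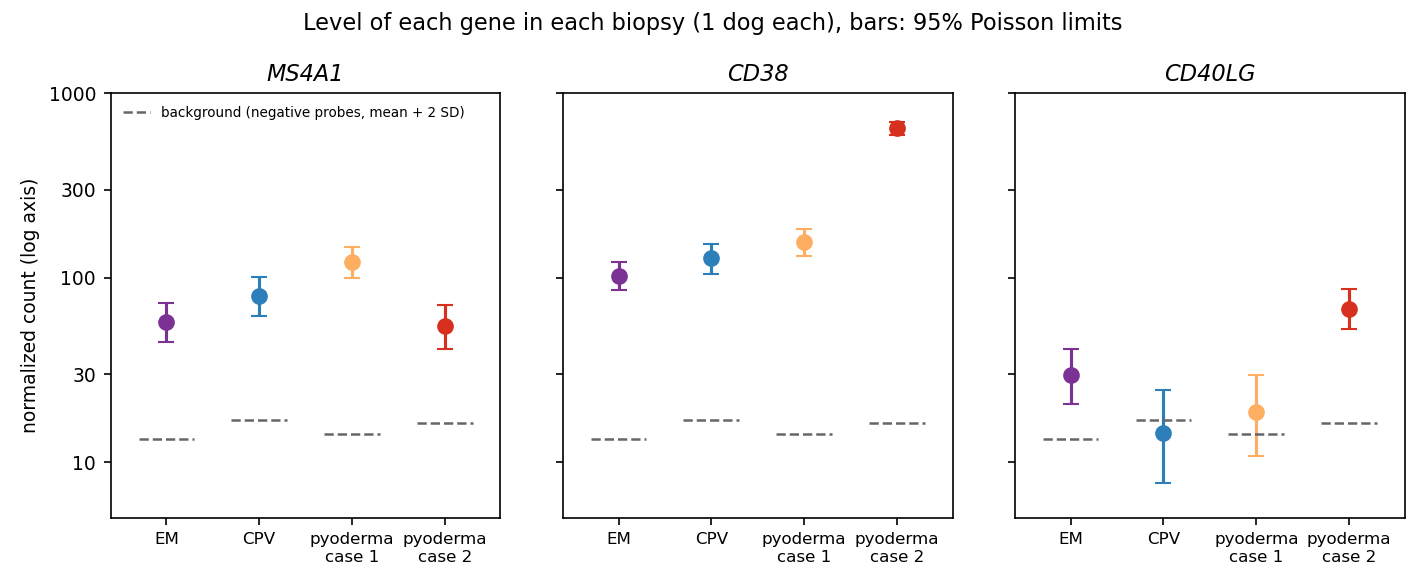
Normalized counts (log axis) of *MS4A1*, *CD38* and *CD40LG* in each of the 4 biopsies, with bars for 95% Poisson limits and dashed lines for the background of that biopsy scaled by the same factor. *CD38* of pyoderma case 2, at 648 normalized counts, stands above all other points, and *CD40LG* of CPV lies under its background line.

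*MS4A1*, the B cell marker, was counted 70 times in EM, 72 times in CPV, 111 times in pyoderma case 1 and 53 times in pyoderma case 2. Every count had a lower Poisson limit, the smallest of them 39.7, above the highest negative control probe of its biopsy. Normalized counts were 57.5 in EM (95% limits 44.8 to 72.6), 79.8 in CPV (62.5 to 101), 122 in pyoderma case 1 (100.1 to 146) and 54.8 in pyoderma case 2 (41.0 to 71.6). The span from the lowest to the highest biopsy was 2.22-fold, less than the 2.68-fold median span of the 129 targets that exceeded background in all 4 biopsies. Pyoderma case 1 was highest under all 9 scalings compared. It exceeded EM by 2.12-fold (interval 1.56 to 2.90) and pyoderma case 2 by 2.22-fold (1.59 to 3.14), and the counting intervals of both ratios lay above 1 under all 9 scalings. Pyoderma case 1 exceeded CPV by 1.52-fold with housekeeping scaling, and by 1.18-fold to 2.08-fold across the 9 scalings. The interval of this ratio lay above 1 under 5 of the 9, so the lead over CPV was not resolved under the rest. EM and pyoderma case 2 could not be ordered, since their ratio of 1.05 had an interval from 0.724 to 1.53 and no scaling gave an interval that left out 1. CPV exceeded EM by 1.39-fold (0.985 to 1.96), an interval that included 1 under 6 of the 9 scalings.

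*CD38*, the activation and plasma cell marker, was counted 125 times in EM, 115 times in CPV, 142 times in pyoderma case 1 and 627 times in pyoderma case 2. Normalized counts were 103 in EM (95% limits 85.5 to 122), 127 in CPV (105 to 153), 156 in pyoderma case 1 (131 to 183) and 648 in pyoderma case 2 (598 to 701). A single biopsy thus stood apart, and the other 3 lay within 1.52-fold of each other. Pyoderma case 2 exceeded pyoderma case 1 by 4.16-fold (interval 3.46 to 5.03), CPV by 5.08-fold (4.16 to 6.26) and EM by 6.31-fold (5.20 to 7.71). It was highest under all 9 scalings, by 3.43-fold to 5.11-fold over the next biopsy. Among the 147 targets above background in pyoderma case 2, *CD38* had the third largest step over the highest of the other biopsies, and the largest of the 65 with a gene symbol. Over the whole panel, 26.9% of targets were highest in pyoderma case 2.

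Below that biopsy, pyoderma case 1 exceeded EM by 1.52-fold (interval 1.18 to 1.94), in the same order under all 9 scalings and with an interval above 1 under 5 of them. The place of CPV followed the scaling, with EM lowest under 6 of the 9 and CPV under the other 3. Pyoderma case 1 and CPV differed by 1.22-fold with an interval from 0.948 to 1.57. With housekeeping scaling EM lay under all 3 comparatives for *CD38* alone of the 3 genes, and 33.8% of the 160 targets did the same. With the same scaling both pyoderma biopsies lay above EM and CPV for *CD38* only, against 18.8% of the panel. Pyoderma case 1 lay above CPV for *CD38* under 5 of the 9 scalings. These positions are descriptions of 4 dogs with no test.

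*CD40LG*, the T cell help ligand, was the weakest of the 3 signals. It was counted 36 times in EM, 13 times in CPV, 17 times in pyoderma case 1 and 66 times in pyoderma case 2. The CPV count lay within its background of 15.2 counts. The count of pyoderma case 1 exceeded its background of 13.0 counts, but its lower Poisson limit of 9.90 did not, so an expressed transcript was not resolved in either biopsy at this depth. Normalized counts were 29.6 in EM (95% limits 20.7 to 40.9), 14.4 in CPV (7.67 to 24.6), 18.6 in pyoderma case 1 (10.9 to 29.8) and 68.2 in pyoderma case 2 (52.7 to 86.8). Pyoderma case 2 exceeded EM by 2.31-fold (interval 1.51 to 3.56), an interval above 1 under all 9 scalings. Since the CPV count lay within background, the background of 15.2 counts was also put in its place. This gave 4.04-fold for pyoderma case 2 and 1.75-fold for EM, without counting error, so neither is a lower limit. As counted, pyoderma case 2 exceeded CPV by 4.73-fold (2.59 to 9.35), an interval above 1 under all 9 scalings. EM exceeded CPV as counted by 2.05-fold (1.06 to 4.22), an interval above 1 under 6 of the 9. The count of pyoderma case 1 holds an unresolved share of background, and as counted it was exceeded by pyoderma case 2 by 3.66-fold (2.12 to 6.66) and by EM by 1.59-fold (0.869 to 3.01). The interval of the latter lay above 1 under 5 of the 9 scalings. Pyoderma case 2 was highest and EM next under all 9, whereas pyoderma case 1 and CPV could not be ordered, with an interval that included 1 under all of them.

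**Figure D2:**
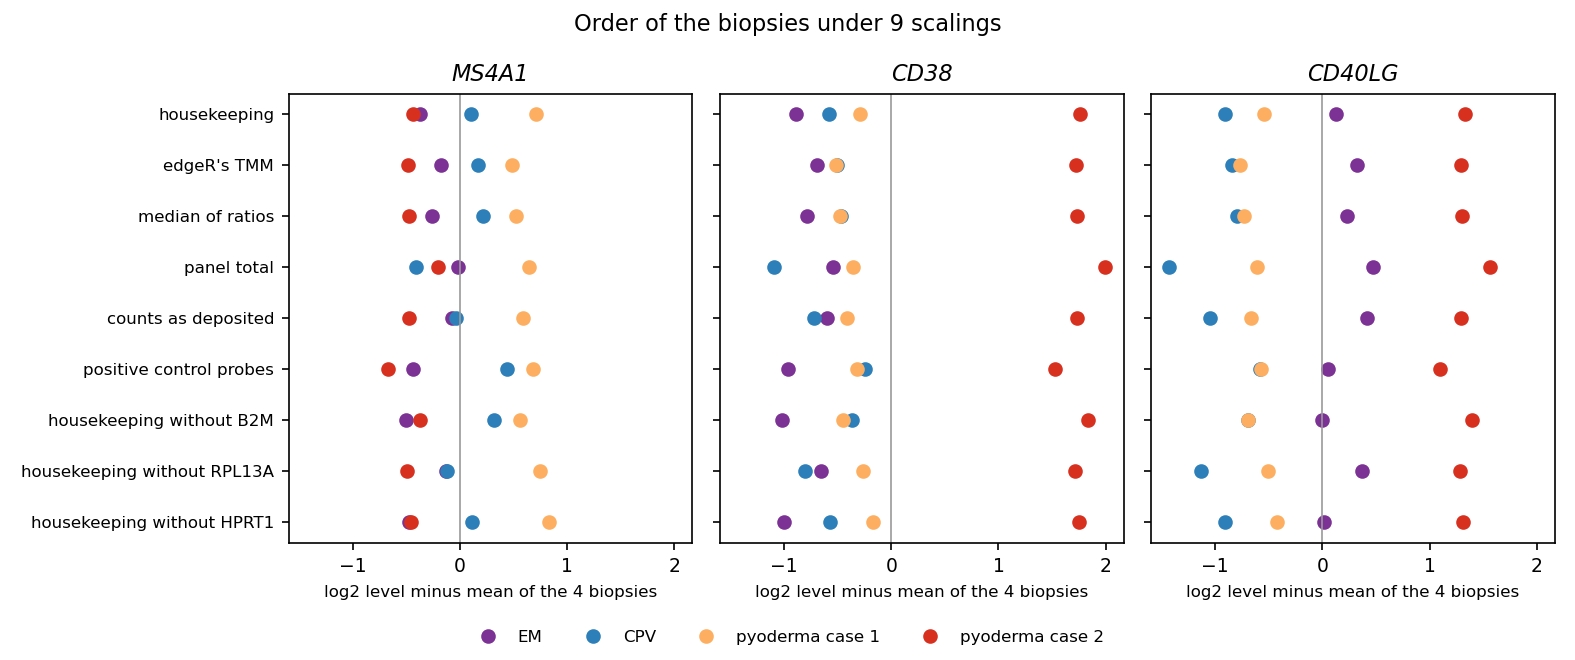
Log2 level of each gene in each biopsy minus the mean of the 4 biopsies (x axis), under each of 9 scalings (rows). Pyoderma case 2 is the rightmost point in every row for *CD38* and *CD40LG*, and pyoderma case 1 in every row for *MS4A1*. For *CD38*, CPV changes places with EM and with pyoderma case 1.

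A ratio between 2 genes of the same biopsy needs no scaling, but probes differ in how well they capture their target, so each ratio was compared between biopsies and not read as relative abundance. Intervals are exact binomial (Clopper-Pearson) limits. *CD38* over *MS4A1* was 1.79 in EM (1.32 to 2.43), 1.60 in CPV (1.18 to 2.18), 1.28 in pyoderma case 1 (0.991 to 1.65) and 11.8 in pyoderma case 2 (8.93 to 16.0). The first 3 intervals overlapped and the fourth lay apart from all of them. Pyoderma case 2 exceeded EM by 6.62-fold, CPV by 7.41-fold and the other pyoderma biopsy by 9.25-fold in this ratio.

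*CD40LG* over *MS4A1*, the ligand relative to the B cell marker, was 0.514 in EM (0.334 to 0.779), 0.181 in CPV (0.0917 to 0.329), 0.153 in pyoderma case 1 (0.0861 to 0.256) and 1.25 in pyoderma case 2 (0.854 to 1.82). Here EM stood between pyoderma case 2 and the other biopsies, with an interval apart from each of the 3. *CD40LG* over *CD38* was 0.288 in EM (0.193 to 0.420), 0.113 in CPV (0.0584 to 0.201), 0.120 in pyoderma case 1 (0.0678 to 0.199) and 0.105 in pyoderma case 2 (0.0804 to 0.136). EM was highest, and the ratios of CPV and pyoderma case 1 rest on *CD40LG* counts that were not resolved from background. The EM interval was apart from that of pyoderma case 2 but overlapped those of CPV and pyoderma case 1. With the mean of the negative control probes subtracted from both counts the ratio was 0.229 in EM, 0.0523 in CPV, 0.0619 in pyoderma case 1 and 0.0893 in pyoderma case 2. With the mean plus 2 SD subtracted it was 0.181 in EM, 0.0311 in pyoderma case 1 and 0.0820 in pyoderma case 2, with no value for CPV.

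**Figure D3:**
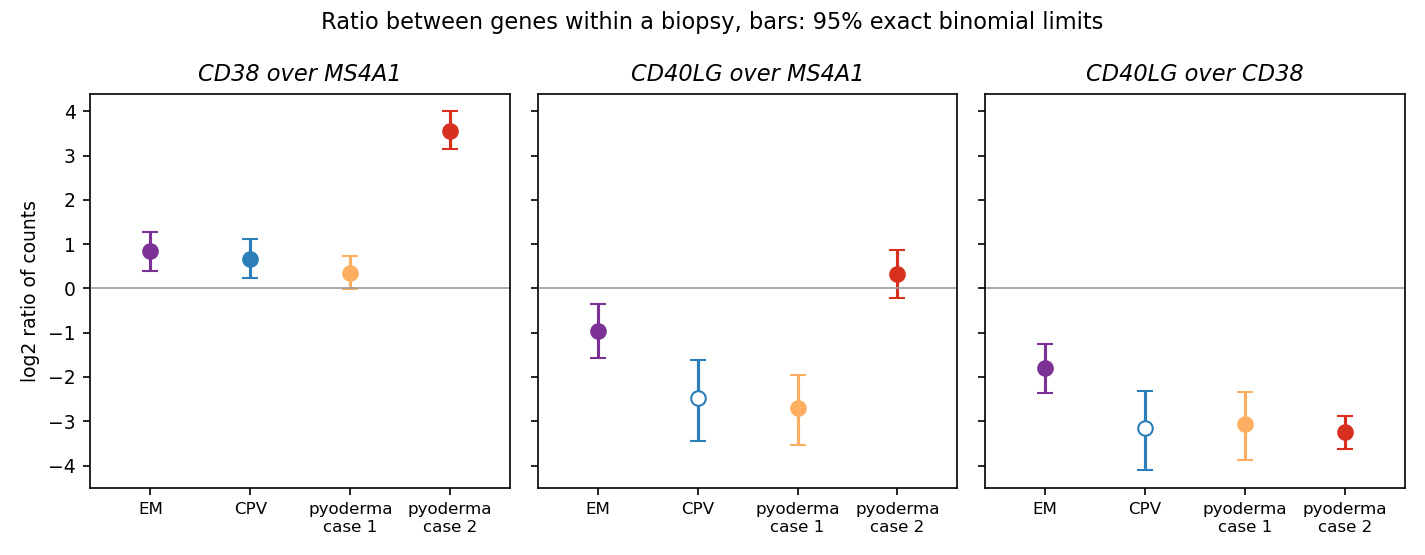
Log2 ratio of counts between genes of the same biopsy for *CD38* over *MS4A1*, *CD40LG* over *MS4A1* and *CD40LG* over *CD38*, with bars for 95% exact binomial limits; the open point marks a *CD40LG* count within background. Pyoderma case 2 lies apart in the first 2 panels, at 3.56 and 0.32 on the log2 scale, and EM is highest in the third, at −1.80.

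The levels of 2 tissue genes followed the order of *CD40LG* as counted or its reverse. For *CD40LG* itself, CPV and pyoderma case 1 were not resolved from each other. *COL1A1*, a collagen gene of dermal fibroblasts, had 69257 normalized counts in EM, 4310 in CPV, 44948 in pyoderma case 1 and 138520 in pyoderma case 2, which is the order of the biopsies for *CD40LG*. *KRT14*, a keratin of basal keratinocytes, had the reverse order, with 17870 in EM, 86770 in CPV, 42257 in pyoderma case 1 and 13027 in pyoderma case 2. For each 1000 counts of *COL1A1* there were 0.427 counts of *CD40LG* in EM (0.299 to 0.591), 0.414 in pyoderma case 1 (0.241 to 0.664) and 0.492 in pyoderma case 2 (0.381 to 0.626). The intervals of these 3 biopsies overlapped, so no difference in *CD40LG* between them was resolved relative to *COL1A1*. The *CD40LG* count of pyoderma case 1 was itself not resolved from background, so a like ratio in that biopsy was not established. CPV, whose *CD40LG* count was within background, had 3.34 (1.78 to 5.72). For *CD38* the same measure was 1.48 in EM (1.23 to 1.77), 29.6 in CPV (24.4 to 35.6), 3.46 in pyoderma case 1 (2.92 to 4.08) and 4.68 in pyoderma case 2 (4.32 to 5.06). Relative to *COL1A1*, pyoderma case 2 therefore remained above pyoderma case 1 and EM for *CD38*, but CPV was highest. For *MS4A1* the measure was 0.830 in EM (0.647 to 1.05) and 18.5 in CPV (14.5 to 23.4). It was 2.71 in pyoderma case 1 (2.23 to 3.26) and 0.395 in pyoderma case 2 (0.296 to 0.517). CPV was thus highest for *MS4A1* as well, and the EM interval lay above that of pyoderma case 2. The comparison with *COL1A1* was chosen after the values were seen, and the part of dermal and epidermal share in the levels was not tested.

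Markers of other cells that carry *CD38* were sparse on the named part of the panel. Of 10 macrophage and dendritic cell genes listed, *CD163*, a scavenger receptor of macrophages, was the only one paired with a target. It had 571 normalized counts in EM, 1375 in CPV, 597 in pyoderma case 1 and 735 in pyoderma case 2. Of 21 T cell and cytotoxic cell genes listed, *KLRD1*, a natural killer cell receptor, and *IFNG*, encoding interferon gamma, were paired, and none of the defining T cell markers, such as *CD3E*. *KLRD1* had 46.8 normalized counts in EM, 97.6 in CPV, 55.9 in pyoderma case 1 and 94.0 in pyoderma case 2, and *IFNG* had 32.9, 77.6, 70.1 and 87.8. *CD163* was highest in CPV, whereas for *KLRD1* and *IFNG* the Poisson limits of CPV and pyoderma case 2 overlapped. The part of macrophages and cytotoxic cells in the *CD38* level was not tested. There were 0.882 counts of *CD38* per count of *CD163* in pyoderma case 2 (0.791 to 0.983), against 0.180 in EM, 0.0927 in CPV and 0.261 in pyoderma case 1, and 6.89 per count of *KLRD1* (5.52 to 8.68), against at most 2.78 elsewhere.

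Of 19 B cell and plasma cell genes listed, only *MS4A1* and *CD38* were paired with a target, so the B cell marker could not be set beside a second one, nor *CD38* beside a plasma cell gene such as *JCHAIN*. As 88 of the 160 targets had no symbol here, this does not show that the panel lacks such genes. Of 20 genes of T cell help to B cells, 7 were paired. *IL4* and *IL21*, cytokines of helper T cells that act on B cells, were at or near background. *IL4* was counted at most 7 times and was within background in all 4 biopsies. *IL21* was counted 9 times in EM, 22 in CPV, 20 in pyoderma case 1 and 14 in pyoderma case 2, and only the middle pair exceeded background. Their lower Poisson limits, 13.8 in CPV and 12.2 in pyoderma case 1, did not, so *IL21* was not resolved in any biopsy. *CD40LG* in pyoderma case 2 was thus not accompanied by a resolved *IL21* or *IL4* signal.

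*IL6*, a cytokine that promotes plasma cell differentiation among many other actions, shared the high value of pyoderma case 2 but not the rest of the *CD38* order. It had 50.1 normalized counts in EM (95% limits 38.3 to 64.4), 125 in CPV (103 to 151), 28.5 in pyoderma case 1 (18.6 to 41.8) and 178 in pyoderma case 2 (152 to 206). *IL13*, a type 2 cytokine, was highest in pyoderma case 1 at 70.1 normalized counts and lay between 28.8 and 37.2 in the others. *IL10*, an anti-inflammatory cytokine that also supports B cells, was lowest in pyoderma case 2 at 79.6 and lay between 104 and 139 in the others. *CD86*, a costimulatory ligand of antigen-presenting cells, was lowest in EM at 474 and highest in CPV at 1262. Of the 7 help genes, *CD40LG* and *IL6* were highest in pyoderma case 2.

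The lymphocyte-attracting chemokines were all above background in the 4 biopsies, with 6 of 16 listed genes paired. *CCL19*, a ligand of CCR7 that guides T cells and dendritic cells, had 922 normalized counts in EM, 443 in CPV, 837 in pyoderma case 1 and 1153 in pyoderma case 2. With housekeeping scaling this is the order of *CD40LG* as counted, in which CPV and pyoderma case 1 were not resolved from each other. Unscaled, *CCL19* had 1123 counts in EM and 1116 in pyoderma case 2, so its order followed the scaling. *CCL21*, the other CCR7 ligand, was lowest in CPV at 83.1 and highest in pyoderma case 1 at 689, with 575 in pyoderma case 2 and 295 in EM. *CXCL12*, which retains lymphocytes and plasma cells through CXCR4, had the order of *CD38* with housekeeping scaling, from 1520 in EM to 3145 in pyoderma case 2. The place of CPV in the *CD38* order followed the scaling, and the *CXCL12* limits of EM and CPV overlapped. *CXCL10* and *CCL5*, which attract activated T cells, were highest in EM at 5957 and 3006, and *CCL20* was highest in pyoderma case 1 at 385. *CXCL13*, the chemokine of B cell follicles, was not among the paired targets.

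**Figure D4:**
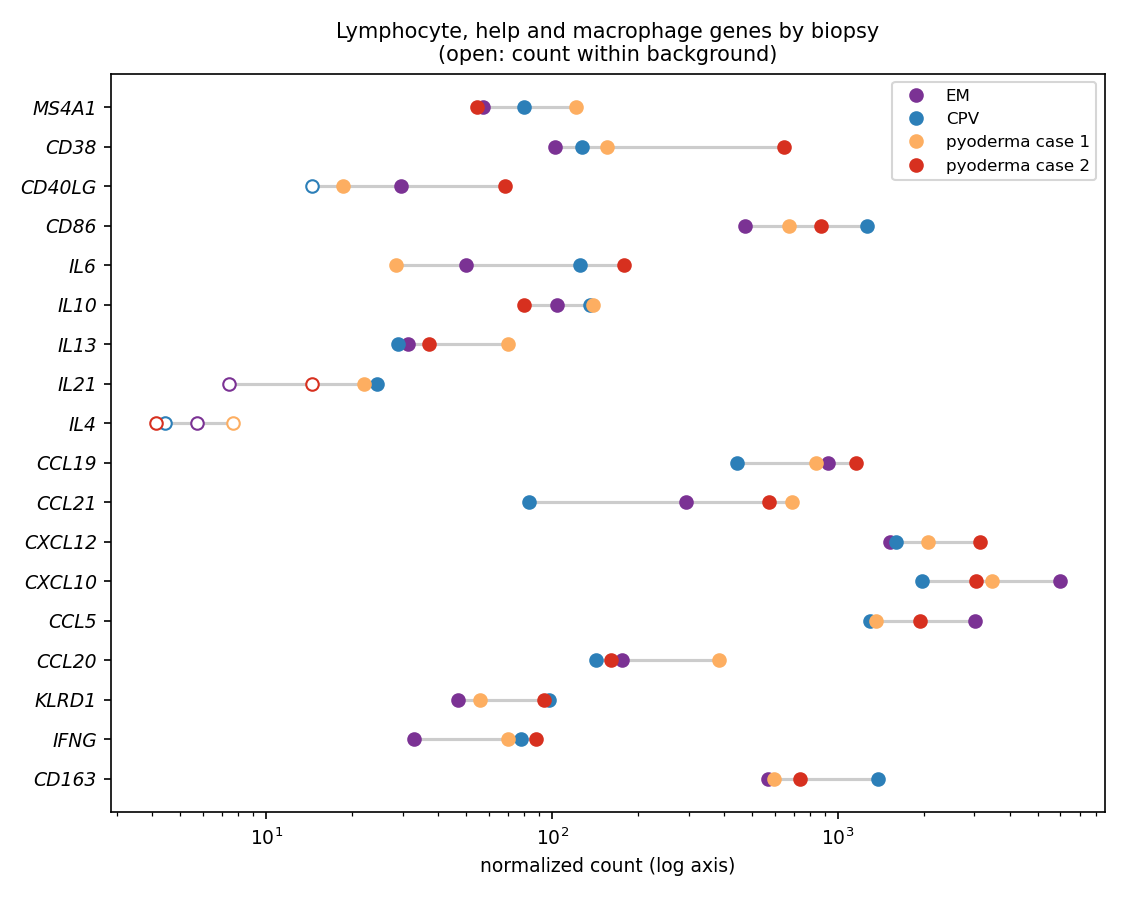
Normalized counts (log axis) in the 4 biopsies of the paired genes of B cells, T cell help, lymphocyte attraction, cytotoxic cells and macrophages, with open points for counts within background. *CD38* has the highest biopsy farthest from the next, 648 against 156 normalized counts.

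The named targets with the pattern most like each gene were ranked by the SD over the 4 biopsies of the log2 ratio of their counts, which no scaling changes, among targets above background in all biopsies. For *MS4A1* they were *CCL3* (SD 0.23), *PPBP* (0.24) and *IL10* (0.29), against a median of 0.81 over 55 candidates. For *CD38* the nearest was *CXCL8*, a neutrophil chemoattractant, at 0.30 against a median of 1.35, followed by *CCL8* (0.72) and *CXCL12* (0.74). *CXCL8* had 849, 744, 1245 and 3287 counts in EM, CPV, pyoderma case 1 and pyoderma case 2, and *CD38* per count of *CXCL8* stayed between 0.114 and 0.191. For *CD40LG* the nearest were *PTGER4*, a prostaglandin E2 receptor (0.58), *CCL19* (0.58) and *CYP1B1* (0.61), against a median of 1.23. *CD38* and *CD40LG* had an SD of 0.68 with each other, and 1.48 and 1.41 with *MS4A1*. *CD40LG* itself was within background in CPV and not resolved from it in pyoderma case 1. Every SD with *CD40LG* therefore rests partly on unresolved counts. With 4 biopsies, of which pyoderma case 2 sets most of the *CD38* and *CD40LG* patterns, these are descriptions.

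The question of whether EM differs from other inflamed skin was put to all 160 targets with edgeR's quasi-likelihood test. Since EM had 1 dog, the fit takes its spread from the comparatives. None of the 3 genes passed an adjusted p of 0.05, and 0% of the panel did (6 targets had an unadjusted p under 0.05, and DESeq2 called 0 adjusted and 11 unadjusted). *CD38* had 103 normalized counts in EM against 310 ± 293 (SD, n = 3) in the comparatives, and its fitted log2 difference was −1.60 with a standard error of 1.13 (edgeR adjusted p = 0.714). This value rests on pyoderma case 2, and without that biopsy it was −0.46. *MS4A1* had 57.5 against 85.4 ± 33.8 (SD, n = 3), a log2 difference of −0.57 with a standard error of 0.855 (edgeR adjusted p = 0.860). *CD40LG* had 29.6 against 33.7 ± 29.9 (SD, n = 3), a log2 difference of −0.19 with a standard error of 0.994 (edgeR adjusted p = 0.938), and without pyoderma case 2 it was 0.83. Over the whole panel the median log2 difference was −0.30, and relative to it the values were −1.30 for *CD38*, −0.27 for *MS4A1* and 0.10 for *CD40LG*.

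Both pyoderma biopsies were also set against EM and CPV, since pyoderma was the only diagnosis with more than 1 dog. In edgeR's test none of the 3 genes was called, and 0.625% of the panel was, which is the target XM_005628934.3 with no symbol here, named after its values were seen. *CD38* averaged 402 normalized counts in pyoderma, from 156 to 648, and 115 in EM and CPV, a log2 difference of 1.80 with a standard error of 0.783 (edgeR adjusted p = 0.534). Without pyoderma case 2 it was 0.44 and without pyoderma case 1 it was 2.49, so the value depended on which of the pyoderma dogs was included. *CD40LG* averaged 43.4 against 22.0, a log2 difference of 0.97 with a standard error of 0.922 (edgeR adjusted p = 0.995), which was −0.25 without pyoderma case 2. *MS4A1* averaged 88.2 against 68.7, a log2 difference of 0.36 with a standard error of 0.869 (edgeR adjusted p = 0.995), which was −0.32 without pyoderma case 1. The 2 comparisons use the same 4 biopsies and are not separate evidence. With 4 dogs, the lack of a call does not show that the genes were at equal levels.

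No other gene of the lists passed in either comparison, with adjusted p from 0.508 to 0.995 over the 18 genes in edgeR's test. The median log2 difference of the 7 help genes was −0.54 for EM minus the comparatives and 0.21 for pyoderma minus EM and CPV, beside −0.30 and 0.08 over all targets. For the 6 chemokines the medians were −0.10 and 0.64. An exact permutation test of 1 biopsy against 3 cannot go below p = 0.25, and a two-sided test of 2 against 2 cannot go below 0.333.

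**Figure D5:**
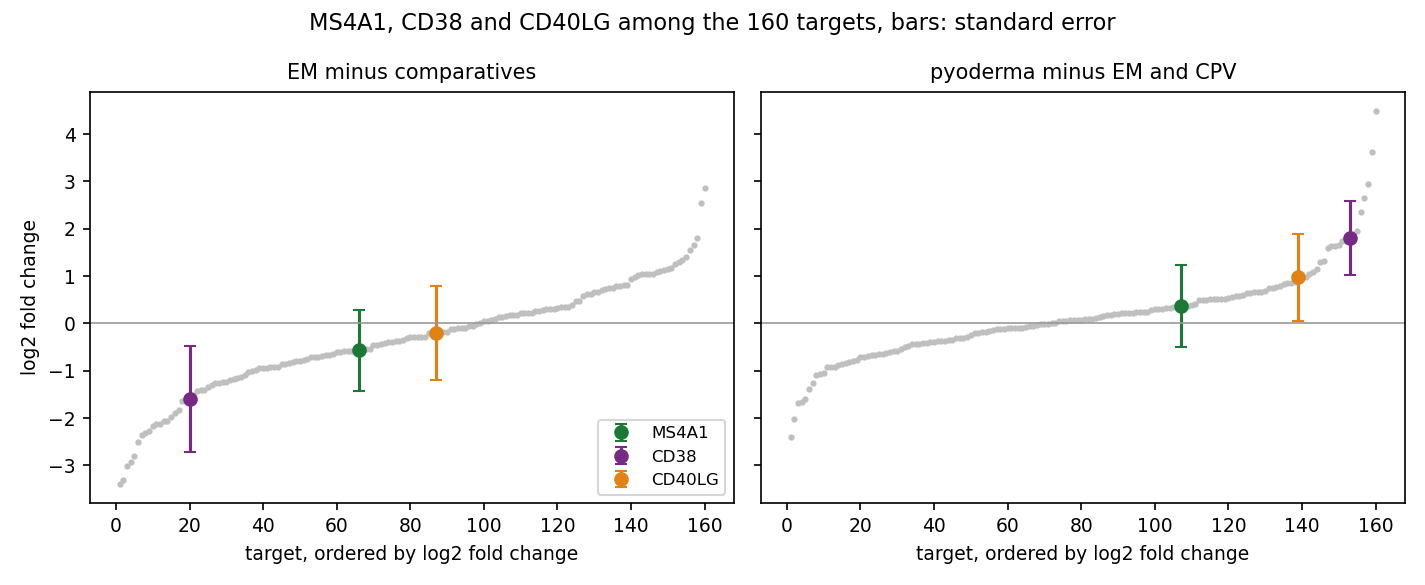
Fitted log2 differences of the 160 targets in order (grey), with *MS4A1*, *CD38* and *CD40LG* in colour and bars for standard errors, for EM minus the comparatives (left) and pyoderma minus EM and CPV (right). *CD38* lies toward the low end on the left, at −1.60, and toward the high end on the right, at 1.80, and no coloured point passed the test.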

How the data were processed

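RNA from formalin-fixed, paraffin-embedded skin curls of 4 dogs was hybridized by the authors to a custom NanoString panel and read on a Sprint instrument. The authors deposited raw counts per probe, not scaled, for 160 targets, 6 positive and 8 negative ERCC control probes. Symbols were found by RefSeq transcript for 72 targets in the gene table of UU_Cfam_GSD_1.0 (names only, versions ignored), and 88 stayed unnamed but entered every fit. Groups came from the sample titles, in which the EM dog is case 4.

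The main scaling used *HPRT1*, *RPL13A* and *B2M*, since *CCZ1*, also used by the authors, had no paired target; a prior step by the positive control probes would cancel in it. The 9 scalings compared were this one, the 3 pairs of these genes, the positive control probes, the panel total, the median of ratios, TMM of edgeR, and no scaling. EM minus the comparatives and pyoderma minus EM and CPV were fitted by edgeR 4.0.16 (R 4.3.3; quasi-likelihood, library sizes from the factors, all targets kept, Benjamini-Hochberg over 160), which was tested on simulated data. DESeq2 1.42.0, 3 groups, a filter at 20 counts, background subtraction and leaving out biopsies were alternatives. With 3 groups, EM was set against pyoderma alone and CPV had no weight in that comparison. Each biopsy is a separate dog, and the p-values weigh a difference against the spread between dogs on the same side of a comparison. That spread includes differences between diagnoses, since CPV was pooled with pyoderma in the first comparison and EM with CPV in the second. Python 3.11.15 with scipy 1.17.1 and matplotlib 3.10.9 gave intervals and plots.

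The genes, lists and tests were chosen with earlier results of these data known. Genes named are the 3 genes, the paired genes of the B cell and T cell help lists, the 3 most alike targets of each gene and the housekeeping genes. Genes of the other lists, *COL1A1*, *KRT14* and the ratios to *COL1A1*, *CD163*, *KLRD1* and *CXCL8* were added after their values were seen.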

Additional observations from a re-analysis of the deposited data

How the results depend on the processing

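For EM against the comparatives, 0 targets were called by edgeR and under 13 of 15 alternatives. The other 2, the fit with EM, CPV and pyoderma as 3 groups and the fit without CPV, had calls. Both set EM against pyoderma alone, so they put a different question from EM against all comparatives and nearly the same one as each other. Pyoderma minus EM and CPV gave 1 target. It gave 0 with a filter at 20 counts and when scaled without *RPL13A*, without *B2M*, by the panel total, by TMM, by the median of ratios or not at all, 3 with the positive control probes and with DESeq2, 4 without *HPRT1* in the scaling and with 3 groups, and 1 to 3 when 1 biopsy was left out (2 without CPV, 3 without pyoderma case 1, 2 without pyoderma case 2). The cause was not tested, and none of the 3 genes was among the calls under any of these alternatives.

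The log2 fold change of *CD40LG* for EM changed sign to 0.060 with TMM, 0.083 with the panel total, 0.11 without *RPL13A* and 0.17 unscaled, and ran from −0.55 to 0.83 with 1 comparative left out. For pyoderma minus EM and CPV, leaving out 1 biopsy gave −0.32 to 0.83 for *MS4A1* and −0.25 to 1.62 for *CD40LG*. *CD38* kept its sign throughout, from −1.97 to −0.46 for EM and from 0.44 to 2.49 for pyoderma, with adjusted p of at least 0.272. The log2 ratio of *CD38* in pyoderma case 2 over EM, 2.66, was 2.33 unscaled and 2.37 without *RPL13A*.

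Subtraction of background moved 8 of 22 log2 ratios within a biopsy out of their counting interval, 7 of them with *CD40LG*, whose counts lie closest to background. With the negative control mean subtracted, *CD40LG* over *MS4A1* was −3.52 in CPV and −3.63 in pyoderma case 1, and *CD40LG* over *CD38* was −4.26 and −4.01. With the mean + 2 SD subtracted, *CD40LG* over *MS4A1* was −4.61 in pyoderma case 1, *CD40LG* over *CD38* was −2.47 in EM and −5.01 in pyoderma case 1, and *CD38* over *MS4A1* was 4.04 in pyoderma case 2. No ratio with *CD40LG* could be had for CPV in that setting. Ranking by Pearson's r in place of the SD shared 2 of the 3 most alike targets for each gene. No paired analysis was possible because each biopsy came from a different dog.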
